A study of Mus musculus with 12 samples.

Results

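The genes described are 7 subunits of the GABA-A receptor, namely Gabra2, Gabra3, Gabra4, Gabra5, Gabrb1, Gabrb2 and Gabrd. They were picked by gene symbol, matched to the Ensembl identifiers of the count tables, and are 7 of 36902 genes listed, of which 33560 held counts. All 7 members had counts in every library, and all 7 passed the filter on low counts.

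RNA was measured in 12 libraries from mouse neurons grown out of embryonic stem cells and collected on day 21 in culture. The 4 groups of 3 libraries were wild-type (WT) neurons given vehicle, knockout (KO) neurons given vehicle, WT neurons given inhibitor and KO neurons given inhibitor. KO means that the Daam1 microexon was removed (Daam1-MIC). Daam1 encodes a formin, a protein that builds actin filaments. The inhibitor was the kinase inhibitor Y-27632 at 10 µM and the vehicle was water, each for 2 h. Each genotype was represented by 3 cell lines, and each of the 6 lines gave 1 vehicle and 1 inhibitor library. The design text of the series names hippocampus of adult mice, whereas every sample is labelled as cultured neurons, and the sample labels were followed. The p-values below set differences against the spread between these lines, pooled over the 4 groups. Except where a block by cell line is named, they do not use the pairing of the vehicle and inhibitor libraries of a line. Whether the lines came from separate clones or separate rounds of differentiation is not given in the sources used here.

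GABA-A receptors are chloride channels built of 5 subunits and opened by the transmitter GABA. Alpha and beta subunits form the sites that bind GABA, and the remaining subunit, often gamma or delta, sets where the receptor sits and how it responds. In rodent forebrain the alpha genes Gabra2, Gabra3 and Gabra5 are strongly used early, while Gabra4, Gabrb2 and Gabrd gain weight as neurons mature, so that the mix of subunits is read as a sign of age. How GABA acts on a neuron also depends on its internal chloride, which Slc12a2 brings in and Slc12a5 carries out.

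The members sit at 5 places in the GRCm38 genome (GENCODE M21 gene spans). Gabra2 (chromosome 5, 70957597 to 71095849, minus strand), Gabra4 (chromosome 5, 71569749 to 71658308, minus strand) and Gabrb1 (chromosome 5, 71658113 to 72149037, plus strand) form a cluster of 1191.4 kb. Gabra4 and Gabrb1 lie head to head and their annotated spans overlap by 196 bases, so reads from that stretch cannot be assigned unless counting used the strand, which is not given in the sources used here. Gabra3 lies on chromosome X (72432681 to 72656848, minus strand), Gabra5 on chromosome 7 (57407672 to 57510059, minus strand), Gabrb2 on chromosome 11 (42419757 to 42629028, plus strand) and Gabrd on chromosome 4 (155384980 to 155398112, minus strand).

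The 250 bases upstream of annotated RefSeq starts (GRCm38.p6) were available for 6 members in 10 windows, without Gabrd. Of these, 3 are shown because their genes span the behaviour described below: Gabra3 was the most abundant member, and in the library that stood apart Gabrb2 was the furthest below the others and Gabra2 was lower by much less. They are written 5′ to 3′ on the strand of the gene, with capitals marking matches to TATAAA or GGGCGG on either strand.
Gabra3 (chrX:72656920-72657169, minus strand): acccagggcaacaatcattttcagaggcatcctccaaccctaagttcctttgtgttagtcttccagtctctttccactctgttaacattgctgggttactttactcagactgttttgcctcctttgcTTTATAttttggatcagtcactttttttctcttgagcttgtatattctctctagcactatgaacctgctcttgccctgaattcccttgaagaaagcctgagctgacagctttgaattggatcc
Gabrb2 (chr11:42420190-42420439, plus strand): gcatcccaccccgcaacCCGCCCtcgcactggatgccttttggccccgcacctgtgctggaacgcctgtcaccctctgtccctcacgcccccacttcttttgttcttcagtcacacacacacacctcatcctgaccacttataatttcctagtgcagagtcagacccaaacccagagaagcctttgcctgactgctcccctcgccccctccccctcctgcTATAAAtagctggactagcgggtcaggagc
Gabra2 (chr5:71095850-71096099, minus strand): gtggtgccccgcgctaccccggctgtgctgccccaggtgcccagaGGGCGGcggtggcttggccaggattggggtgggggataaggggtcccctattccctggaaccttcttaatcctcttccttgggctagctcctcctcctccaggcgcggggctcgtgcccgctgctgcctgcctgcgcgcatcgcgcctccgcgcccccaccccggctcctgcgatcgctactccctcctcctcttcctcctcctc

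The Gabra3 window was 42.4% G or C and held 0 CpG dinucleotides, against medians of 52.4% and 6 over 32536 distinct promoter windows of the same length. The Gabra2 window was at the other end, with 70.0% G or C and 18 CpG dinucleotides, and the Gabrb2 window shown lay between them at 58.8% and 8. Other windows of a gene differed: of the 2 further Gabrb2 windows, neither of which held TATAAA or GGGCGG, 1 was 36.8% G or C with 4 CpG dinucleotides, and the other was 54.0% with 8. The letters TATAAA, in either orientation, occurred once in the Gabra3 window, as TTTATA, and once in the Gabrb2 window shown, where 12.3% of all windows held a match. GGGCGG was found once in the Gabra2 window and once, as CCGCCC, in the Gabrb2 window shown, and 33.0% of all windows held it. Neither TGACGTCA, present in 1.56% of all windows, nor GCGTGGGCG, present in 0.541%, was found in any of the 10 windows of the members. These matches describe letters only.

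Library totals ran from 23253566 to 35012561 counts. Gene-level Daam1 lay between 25.0 and 31.3 cRPKM (a corrected RPKM from the deposited tables, which sets reads against library size and gene length) in WT vehicle and between 25.4 and 30.0 in KO vehicle, which says nothing about the microexon. The KO inhibitor library of line 3 stood apart: of 15443 genes tested, 3489 (22.6%) were over 2-fold lower there than in the median of the other 11 libraries. All 15 pan-neuronal markers were lowest there, with a summed level of 1366 cRPKM against 3484 to 4767 in the other 11. Summed progenitor markers were at 635 cRPKM against 30.4 to 187, and astrocyte markers at 482 against 185 to 262. The astrocyte list was split: of 9 markers, 7 were highest in that library and 2, Aldoc and Slc1a2, were lowest. Summed pluripotent markers were at 62.4 cRPKM against 4.86 to 20.2, with 3 of 6 highest there and 1 lowest. Oligodendrocyte lineage markers were at 20.7 against 6.08 to 8.58, with 3 of 7 highest and 1 lowest. Mesenchymal markers, at 202, lay within the 8.30 to 365 of the other 11. Results that rest on that library are given with and without it. To a lesser degree WT vehicle line 2 and WT inhibitor line 3 also differed from the other WT libraries, with summed pan-neuronal markers of 3484 and 3586 cRPKM against 4274 to 4501, progenitor markers of 177 and 187 against 30.4 to 78.4, and mesenchymal markers of 365 and 234 against 30.6 to 104. Over all genes, the deviations of WT vehicle line 2 from its group resembled those of WT inhibitor line 3 (r = 0.73) and not those of WT inhibitor line 2 (r = −0.55). In KO, those of vehicle line 1 resembled those of inhibitor line 3 (r = 0.65) and not those of inhibitor line 1 (r = −0.19). Deviations from the mean of 3 libraries cancel out, so a single library apart in each group can give such values under any labels. These values therefore cannot show whether the line labels are right, and differences by line, in WT or KO, rest on those labels. In RNA from a whole culture, fewer cells of a type and less RNA per cell cannot be told apart.

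The label of glutamatergic neurons was only partly borne out by marker genes. Slc17a6, a vesicular glutamate transporter, lay between 58.8 and 102 cRPKM in 11 libraries and at 13.4 in KO inhibitor line 3. The forebrain glutamatergic markers Slc17a7, Neurod1, Neurod2, Neurod6, Tbr1 and Emx1 stayed under 1 cRPKM in all 12 libraries, the highest value being 0.75. Genes of inhibitory neurons were abundant, with Gad1 at 27.8 to 76.3 cRPKM, Gad2 at 13.4 to 40.3, the vesicular GABA transporter Slc32a1 at 20.2 to 73.5 and the peptide gene Sst at 94.0 to 271. The list of inhibitory markers was split, however: the transcription factor genes Dlx1, Dlx2, Dlx5 and Dlx6 did not exceed 0.29 cRPKM in any library, and Lhx6 lay between 2.87 and 5.60. The subunit levels below therefore come from cultures that hold transcripts of both kinds of neuron, and which cells carried each subunit was not measured.

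Among the 7 members, transcripts of the early alpha subunits made up most of the summed cRPKM. Gabra3 and Gabra5 together accounted for 65.2% to 68.8% of the summed cRPKM of the 7 members in 11 libraries, and for 59.5% in KO inhibitor line 3. Levels between genes are compared in cRPKM, since it is scaled by gene length. From high to low, the mean levels over 12 libraries had the order Gabra3 (44.8 cRPKM), Gabra5 (26.2), Gabra2 (13.4), Gabrb2 (9.66), Gabra4 (9.63), Gabrb1 (1.72) and Gabrd (0.146). Gabra3 exceeded Gabra5 in 12 of 12 libraries, Gabra5 exceeded Gabra2 in 11, and Gabra2 exceeded Gabrb2 in 10. Gabrb2 and Gabra4 did not separate, as Gabrb2 was the higher of them in 5 of 12 libraries. Gabra4 exceeded Gabrb1, and Gabrb1 exceeded Gabrd, in all 12.

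**Figure D1:**
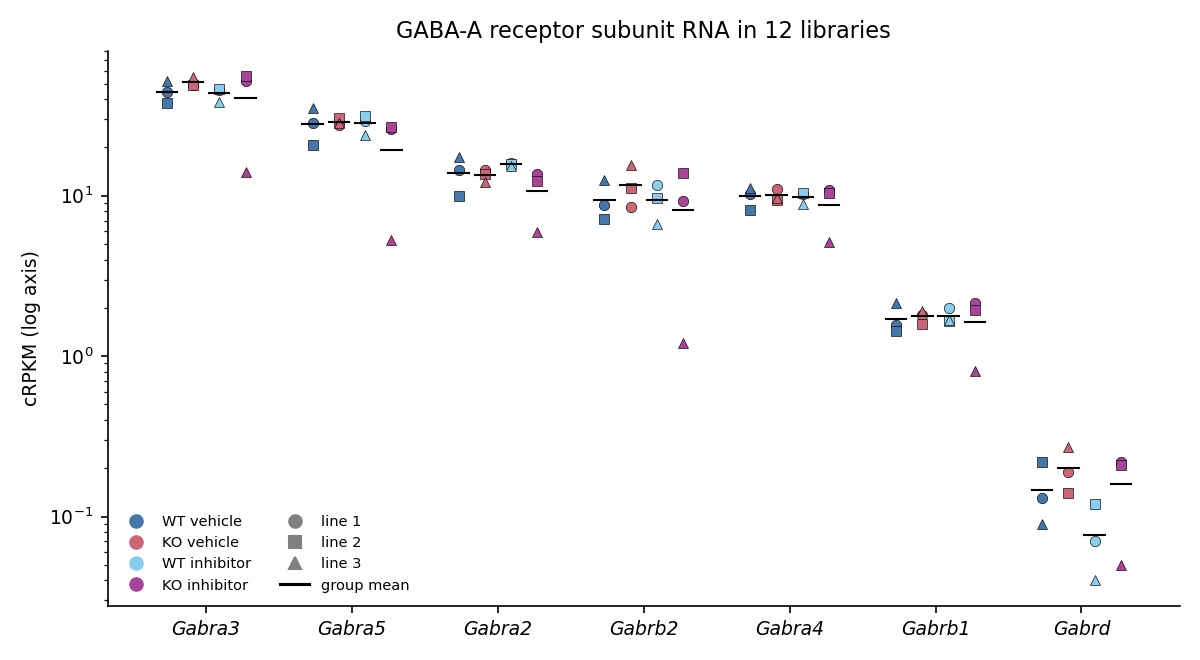
Level of each member in each of the 12 libraries, as deposited cRPKM on a log axis. Colour gives the group, shape the number of the cell line within its genotype, and a bar the group mean. The KO inhibitor library of line 3 (triangles) is the lowest point for every member but Gabrd, at 14.1 cRPKM for Gabra3 and 1.20 for Gabrb2.

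Gabra3, an alpha subunit plentiful in embryonic forebrain, read 44.1, 37.6 and 51.8 cRPKM in the WT vehicle lines 1, 2 and 3 and 49.0, 49.0 and 55.0 in the KO vehicle lines. With inhibitor it read 45.5, 46.3 and 38.4 cRPKM in the WT lines and 51.6, 55.7 and 14.1 in the KO lines. The WT and KO vehicle libraries overlapped, and the KO inhibitor group held both the highest value of the 12 and the lowest. Gabra5, an alpha subunit of receptors that mostly lie outside synapses in hippocampus, read 28.3, 20.7 and 35.4 cRPKM in WT vehicle and 27.8, 30.5 and 28.5 in KO vehicle. With inhibitor it read 29.3, 31.6 and 24.0 in WT and 26.1, 26.8 and 5.30 in KO. All 3 KO inhibitor libraries of Gabra5 lay below all 3 KO vehicle libraries, by a small gap in lines 1 and 2 and a wide one in line 3.

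Gabra2, an alpha subunit of synapses and of the axon initial segment, read 14.5, 9.91 and 17.4 cRPKM in WT vehicle and 14.5, 13.6 and 12.2 in KO vehicle. With inhibitor the WT lines read 15.9, 15.7 and 15.3 and the KO lines 13.7, 12.3 and 5.95. The WT inhibitor libraries agreed closely and lay above all 3 KO inhibitor libraries. WT vehicle, in contrast, spread widely enough to enclose all KO vehicle values.

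Gabra4, the alpha subunit that often joins with delta, was the steadiest member. In vehicle it read 10.3, 8.16 and 11.2 cRPKM in the WT lines and 10.9, 9.44 and 9.73 in the KO lines. With inhibitor the WT lines read 10.3, 10.4 and 8.84 and the KO lines 10.8, 10.4 and 5.17. Over the 11 libraries other than KO inhibitor line 3, its coefficient of variation in cRPKM was 9.16%, against 12.6% to 14.8% for Gabra2, Gabra3, Gabra5 and Gabrb1. That of Gabrb2 was 26.7% and that of Gabrd 47.0%.

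Among the beta subunits, which help to form the GABA site and anchor the receptor, Gabrb2 was the more abundant and the more variable. It read 8.74, 7.11 and 12.5 cRPKM in WT vehicle and 8.45, 11.2 and 15.5 in KO vehicle. With inhibitor it read 11.6, 9.71 and 6.69 in WT and 9.26, 13.9 and 1.20 in KO. WT line 3 and KO line 3 are different cell lines. Each held the highest Gabrb2 value of its vehicle group and the lowest of its inhibitor group. Gabrb1 ranged from 1.43 to 2.15 cRPKM in 11 libraries and read 0.81 in KO inhibitor line 3. Its gene model is long: counts and cRPKM together imply a length of 13671 bases, against 2622 for Gabra5, and its level in TMM-scaled counts (CPM), which take no account of length, was 20.3 to 29.0 in the same 11 libraries.

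Gabrd, the delta subunit of receptors outside synapses, was close to the limit of the counts. The WT lines had 7, 11 and 5 reads with vehicle and 4, 6 and 2 with inhibitor, and the KO lines 10, 6 and 13 with vehicle and 13, 14 and 3 with inhibitor. Differences of Gabrd thus rest on fewer than 15 reads a library, and its fold changes carry the largest relative counting error of the 7.

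**Figure D2:**
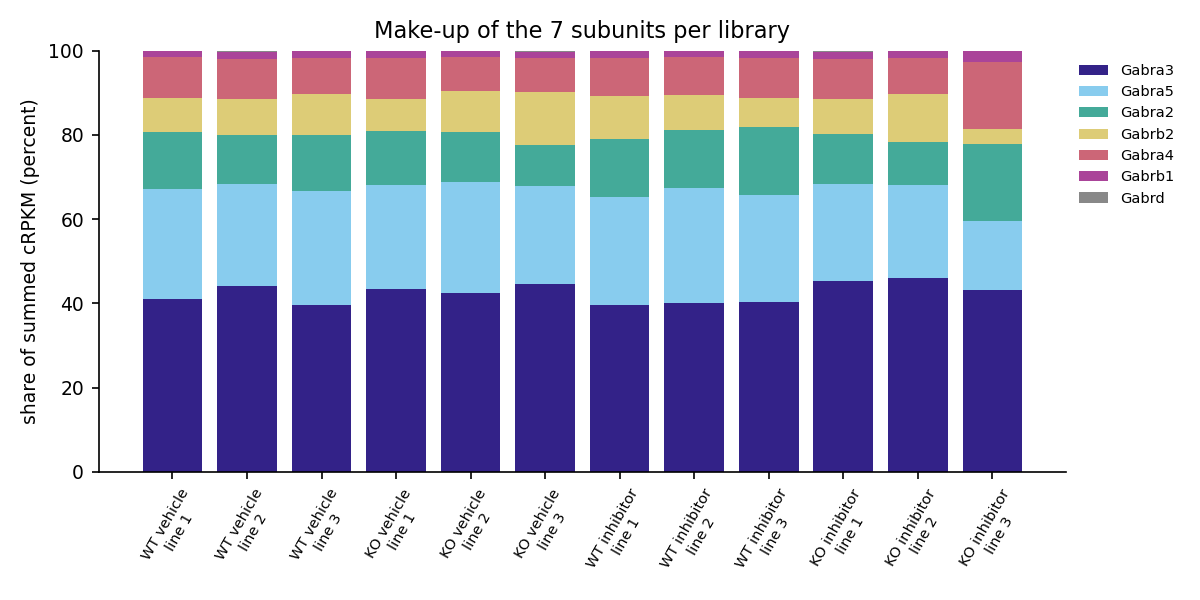
Share of each member in the summed cRPKM of the 7, in percent, for each library. Gabra3 takes 39.7% to 46.0% in all 12 bars, while in KO inhibitor line 3 the share of Gabra4 is 15.9% and that of Gabrb2 is 3.69%.

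The make-up was alike in 11 libraries and shifted in the KO inhibitor library of line 3. There the 7 members summed to 32.5 cRPKM, against 85.1 to 130 in the others. The share of Gabra4 was 15.9% in that library and 7.91% to 9.71% in the others. The share of Gabra2 was 18.3% against 9.90% to 16.1%. Gabra5 went the other way, with 16.3% against 22.1% to 27.4%, as did Gabrb2, with 3.69% against 7.05% to 12.6%. Gabra3 kept its share, at 43.2% against 39.7% to 46.0%.

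As a simple summary of the subunit switch, the mean log2(cRPKM + 0.1) of the later genes Gabra4, Gabrb2 and Gabrd was taken minus that of the earlier genes Gabra2, Gabra3 and Gabra5. It is a description with no test. The difference averaged −3.18 ± 0.26 with vehicle and −3.42 ± 0.13 with inhibitor in WT, and −3.06 ± 0.22 and −2.96 ± 0.082 in KO (mean ± SD, n = 3 each). All 3 KO inhibitor libraries, at −3.05, −2.89 and −2.94, lay above all 3 WT inhibitor libraries, at −3.34, −3.34 and −3.57. That separation rested on the few reads of Gabrd. Without Gabrd the KO inhibitor libraries were at −1.39, −1.13 and −1.56 and the WT inhibitor libraries at −1.34, −1.49 and −1.64, which overlap, and the means were −1.41 ± 0.048 and −1.49 ± 0.15 in WT and −1.33 ± 0.19 and −1.36 ± 0.22 in KO. Leaving out KO inhibitor line 3, the mean of that group was −2.97 with Gabrd and −1.26 without it. The later subunits were on average below the earlier ones in all 12 libraries. A single ratio varied more: Gabrb2 to Gabra2 lay between 0.438 and 1.27 in 11 libraries, with Gabrb2 the higher of the 2 in KO vehicle line 3 (1.27) and KO inhibitor line 2 (1.13), and at 0.202 in KO inhibitor line 3.

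The first comparison asked whether loss of the Daam1 microexon went with other subunit levels in vehicle. No member differed between KO and WT beyond the spread between lines. Gabra3 averaged 44.5 ± 7.09 cRPKM in WT and 51.0 ± 3.46 in KO (SD, n = 3), with a log2 fold change in counts of 0.23 ± 0.41 (SE). Gabrb2 averaged 9.46 ± 2.79 and 11.7 ± 3.52 cRPKM, with a log2 fold change of 0.34 ± 0.66. The log2 fold change was −0.01 ± 0.29 for Gabra2, 0.06 ± 0.26 for Gabra4, 0.08 ± 0.48 for Gabra5, 0.08 ± 0.32 for Gabrb1 and 0.46 ± 0.60 for Gabrd. Higher in KO were 6 of 7 members, against 48.3% of all genes, with a median log2 fold change of 0.08 against −0.01 over all genes. The pan-neuronal markers lay further the same way, with 13 of 15 higher in KO and a median of 0.20. Without WT vehicle line 2 the values were −0.20 for Gabra2, 0.14 for Gabra3, −0.045 for Gabra4, −0.084 for Gabra5, −0.016 for Gabrb1, 0.20 for Gabrb2 and 0.90 for Gabrd, so that the sign of 3 members turned.

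By edgeR's quasi-likelihood test 0 of 7 members were called in vehicle at an adjusted p below 0.05 (Benjamini-Hochberg adjusted p = 0.999 for each), and 0 of 7 reached an unadjusted p below 0.05. Over all 15443 genes the test called 0%, 1.99% reached the unadjusted threshold, and DESeq2 called 0.0718% of 15313 genes with an adjusted p, none of them a member. The WT and KO vehicle libraries overlapped for all 7 members, whereas 12.5% of all genes did not overlap. Without KO inhibitor line 3, which enters this fit only through the shared spread, 8.57% of genes reached the unadjusted threshold and still 0 of 7 members. Mesenchymal markers tended to be lower in KO. Their summed level was 30.6 to 365 cRPKM in WT vehicle and 8.30 to 32.4 in KO vehicle, ranges that just overlapped. By edgeR 8 of 10 were lower in KO vehicle at an unadjusted p below 0.05. Under inhibitor the sums were 83.5 to 234 in WT and 20.8 to 202 in KO, with KO inhibitor line 3 at 202. The part of mesenchymal markers in the subunit values was not tested.

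**Figure D3:**
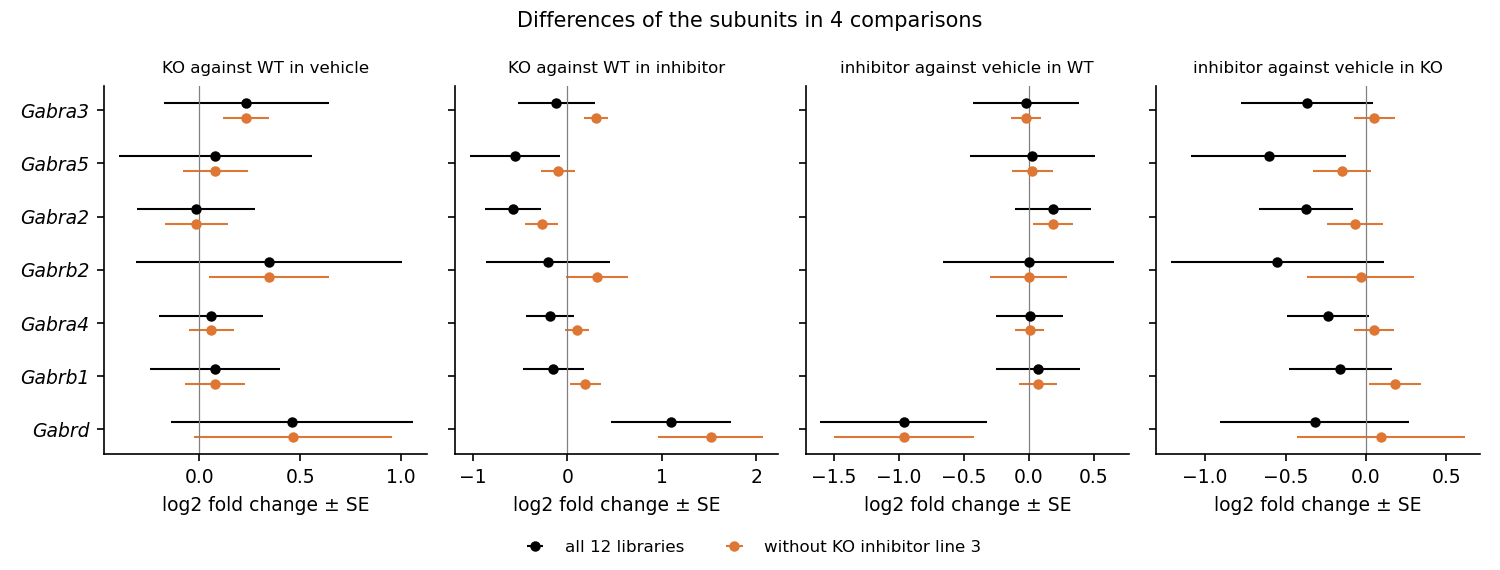
Log2 fold change of each member (point) with its SE (line) in 4 comparisons, from the fit to all 12 libraries (black) and from the fit without KO inhibitor line 3 (orange). In the KO inhibitor comparisons the black points of Gabra5 lie at −0.55 and −0.61 and the orange ones at −0.10 and −0.15.

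The same genotype comparison under inhibitor gave lower values in KO for 6 of 7 members, and the sign of 4 of them turned when KO inhibitor line 3 was left out. The log2 fold changes over all 12 libraries were −0.57 ± 0.29 for Gabra2, −0.55 ± 0.48 for Gabra5, −0.20 ± 0.66 for Gabrb2, −0.18 ± 0.26 for Gabra4, −0.15 ± 0.32 for Gabrb1 and −0.11 ± 0.41 for Gabra3, and Gabrd stood at 1.10 ± 0.63. Without that library they were −0.27 ± 0.18 for Gabra2 and −0.10 ± 0.18 for Gabra5, but 0.31 ± 0.33 for Gabrb2, 0.11 ± 0.12 for Gabra4, 0.19 ± 0.16 for Gabrb1 and 0.31 ± 0.13 for Gabra3, and Gabrd stood at 1.52 ± 0.56. The median over the members was −0.18 with all libraries, against −0.00050 over all genes and −0.25 over the pan-neuronal markers. Without KO inhibitor line 3 it was 0.19, and that of the pan-neuronal markers 0.18.

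Under inhibitor, edgeR called 0 of 7 members (adjusted p from 0.856 to 0.937 for the 7, n = 3 lines a group), with 0 of 7 at an unadjusted p below 0.05 and 0 of 7 by DESeq2. Over all genes the shares were 0% called by edgeR, 3.50% at the unadjusted threshold and 0.122% called by DESeq2. Gabra2 was the only member whose WT and KO inhibitor libraries did not overlap, being lower in KO, and 10.5% of all genes did not overlap. Without KO inhibitor line 3, Gabra3 (edgeR unadjusted p = 0.036, adjusted p = 0.515) and Gabrd (unadjusted p = 0.022, adjusted p = 0.502) reached the unadjusted threshold, as did 9.50% of all genes, and 0 of 7 were called. With 3 WT and 2 KO libraries left, Gabra2 was lower and Gabra3, Gabra4 and Gabrd were higher without overlap, where 36.7% of all genes did not overlap.

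Whether 2 h of the inhibitor went with other subunit levels was asked first in WT. There the fitted difference of each member other than Gabrd was smaller than its SE. The log2 fold change, inhibitor against vehicle, was 0.19 ± 0.29 for Gabra2, −0.02 ± 0.41 for Gabra3, 0.01 ± 0.26 for Gabra4, 0.03 ± 0.48 for Gabra5, 0.07 ± 0.32 for Gabrb1 and −0.0032 ± 0.66 for Gabrb2. Gabrd stood at −0.96 ± 0.64, from 7, 11 and 5 reads to 4, 6 and 2. Of the 7 members, 0 were called by edgeR (adjusted p = 1.00 for each) or by DESeq2, and 0 reached an unadjusted p below 0.05. Over all genes 0% were called by either tool and 0.304% reached the unadjusted threshold, or 1.36% without KO inhibitor line 3. All 7 members overlapped between the groups, where 5.97% of all genes did not. The WT lines did not move together: Gabrb2 was higher with inhibitor by 0.44 and 0.42 (log2 CPM) in lines 1 and 2, and lower in line 3, at −0.87. Gabra5 differed by 0.08, 0.58 and −0.52 in lines 1, 2 and 3. The small fitted values of these 2 genes thus average lines of opposite sign. As fitted differences, Gabrb2 was at −0.18 without WT vehicle line 2 and at 0.19 without WT inhibitor line 3. Gabrd was lower with inhibitor in 3 of 3 WT lines.

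In KO, all 7 members were lower with inhibitor than with vehicle, and most of that difference came from line 3. The log2 fold changes were −0.61 ± 0.48 for Gabra5, −0.55 ± 0.66 for Gabrb2, −0.37 ± 0.29 for Gabra2, −0.37 ± 0.41 for Gabra3, −0.32 ± 0.59 for Gabrd, −0.23 ± 0.26 for Gabra4 and −0.16 ± 0.32 for Gabrb1. Without KO inhibitor line 3 the values ran from −0.15 for Gabra5 to 0.18 for Gabrb1, and 4 of 7 were above 0. By line, Gabrb2 differed by 0.08 and 0.32 in lines 1 and 2 and by −3.78 in line 3 (log2 CPM, inhibitor minus vehicle). Gabra5 differed by −0.14, −0.18 and −2.53, and Gabra3 by 0.02, 0.19 and −2.08.

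In KO, 0 of 7 members were called by edgeR (adjusted p from 0.524 to 0.757 for the 7, n = 3 lines a group) or by DESeq2, and 0 reached an unadjusted p below 0.05. Over all genes 0% were called by either tool and 7.05% reached the unadjusted threshold, or 1.15% without KO inhibitor line 3. The median over the members was −0.37, against −0.02 over all genes and −0.42 over the 15 pan-neuronal markers, which were all lower too. Gabra5 was the only member whose libraries did not overlap, where 8.84% of all genes did not, and it was still lower without overlap when KO inhibitor line 3 was left out, where 14.0% did not. These tests did not use the pairing by cell line. With cell line as a block, KO inhibitor line 3 included, the Gabra5 value was −0.91 ± 0.54 and that of Gabrb2 −0.94 ± 0.92. The edgeR adjusted p was 0.640 for both, and no member was called.

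The interaction of genotype and inhibitor tested whether the response differed between KO and WT, and it gave no call. Its log2 values were −0.63 ± 0.68 for Gabra5, −0.56 ± 0.41 for Gabra2, −0.55 ± 0.93 for Gabrb2, −0.35 ± 0.58 for Gabra3, −0.24 ± 0.36 for Gabra4, −0.23 ± 0.45 for Gabrb1 and 0.64 ± 0.86 for Gabrd. By edgeR 0 of 7 members were called (adjusted p from 0.808 to 0.853), 0 reached an unadjusted p below 0.05, and 0 were called by DESeq2. Over all genes 0% were called by either tool and 1.20% reached the unadjusted threshold, or 2.03% without KO inhibitor line 3. Without that library the values lay between −0.25 for Gabra2 and 1.06 for Gabrd. The genotype and inhibitor comparisons share libraries, so the lower values under inhibitor in KO, between genotypes and in the interaction are not separate observations.

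In KO inhibitor line 3 the members were lower to very different degrees. Against the median of the other 11 libraries, CPM was lower 8.69-fold for Gabrb2, 5.72-fold for Gabra5, 3.72-fold for Gabra3, 2.72-fold for Gabrd, 2.53-fold for Gabra2, 2.44-fold for Gabrb1 and 2.09-fold for Gabra4. The 15 pan-neuronal markers were lower there by 2.60-fold (Dcx) to 7.49-fold (Map2), with a median of 3.41-fold. Gabrb2 thus lay beyond all 15 of these markers. Gabra2, Gabra4 and Gabrb1 lay short of all 15, Gabra2 only narrowly, at 2.53-fold beside 2.60-fold for Dcx. Gabra5 was exceeded by 2 markers and Gabra3 by 4.

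**Figure D4:**
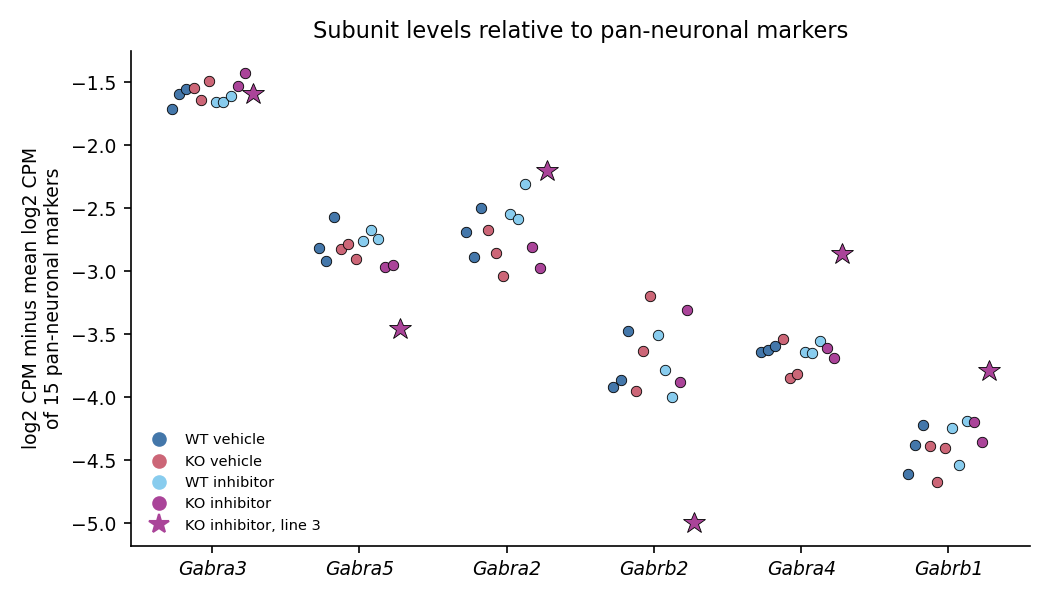
Log2 CPM of each member minus the mean log2 CPM of 15 pan-neuronal markers, per library, coloured by group, with KO inhibitor line 3 as a star. The star of Gabra3 lies among the other points at −1.60, those of Gabra2, Gabra4 and Gabrb1 lie above all others, and those of Gabra5 and Gabrb2 lie below all others. Gabrd is left out for its few reads.

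Set against the mean of these markers, the members fell into 3 patterns in that library. Gabra3 followed the markers, with a log2 difference of −1.60 there and of −1.71 to −1.43 in the other 11 libraries. Gabra4 lay higher, at −2.87 against −3.85 to −3.54, as did Gabrb1, at −3.79 against −4.67 to −4.19, and Gabra2, at −2.21 against −3.04 to −2.31. Gabra5 lay lower, at −3.46 against −2.97 to −2.57, and Gabrb2 lower still, at −5.00 against −4.0 to −3.20. This is a description of 1 library, without a replicate.

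Across libraries the 6 members other than Gabrd were correlated, mainly through that 1 library. The Pearson correlation of log2 CPM over 12 libraries ran from 0.83 to 0.98 over their 15 pairs, with a median of 0.94. Over the other 11 libraries it ran from 0.03 to 0.85, with a median of 0.56. Values of 1 library share its depth and make-up of cells, so these are descriptions. Of 11073 genes with a mean of at least 5 CPM, the most like Gabra3 were Dnajc6 (r = 0.998 over 12 libraries, 0.984 over 11), a clathrin uncoating factor, and Pja2 (0.998 and 0.985), a ubiquitin ligase. Those most like Gabrb2 were St8sia6 (0.996 and 0.969), a sialyltransferase, and Lpgat1 (0.995 and 0.964). Those most like Gabra2 were Kcnt2 (0.988 and 0.949), a potassium channel, and B230209E15Rik (0.985 and 0.950). Gpm6a (0.989 over 12 libraries, 0.917 over 11) and Lrp8 (0.988 and 0.921) were most like Gabra4. Kiss1r (0.996 and 0.930) and Soga3 (0.996 and 0.939) were most like Gabra5, and Homer1 (0.980 and 0.901) and Pcdha3 (0.973 and 0.914) most like Gabrb1. For Gabrd the best matches over 12 libraries, Bcam (0.917 and 0.899) and Phospho2 (0.914 and 0.896), were weaker. At the lower bar of r over 0.9 over 12 libraries, 2785 genes followed Gabra3 and 590 followed Gabra2, but 5 followed Gabrd. These counts include KO inhibitor line 3 and are not given without it.

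Of 9 other GABA-A subunits in the list, 4 reached a mean of 1 cRPKM. Gabrg1 had a mean of 3.59 cRPKM, Gabrq 2.67, Gabre 2.31 and Gabrg3 1.54, all below Gabra4. Gabrg1 and Gabrg3 encode gamma subunits, the class found in most synaptic receptors, and Gabre and Gabrq encode the epsilon and theta subunits, known from a few regions such as the hypothalamus. Gabra6, Gabrp, Gabrr1, Gabrr2 and Gabrr3 had at most 8 reads in any library. In the 5 comparisons 0 of the 4 tested subunits were called. Gabrg1 was lower in KO than WT under inhibitor, with a log2 fold change of −0.53 ± 0.22 (edgeR unadjusted p = 0.039, adjusted p = 0.856), and without KO inhibitor line 3 it was −0.43 ± 0.23 (unadjusted p = 0.095, adjusted p = 0.558). In KO inhibitor line 3 Gabrg1 was 1.5-fold lower than the median of the others, less than any of the 7 members.

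The partners of these receptors were plentiful and were not called either. Gphn, the scaffold under inhibitory synapses, lay between 25.9 and 39.6 cRPKM in 11 libraries and at 11.7 in KO inhibitor line 3. Nlgn2, an adhesion protein of the same synapses, lay between 58.9 and 75.6 cRPKM and at 27.6. In vehicle, KO against WT, the log2 fold change was 0.28 ± 0.37 for Gphn and −0.06 ± 0.31 for Nlgn2 (edgeR adjusted p = 0.999 for both). Of 18 tested genes for anchoring and trafficking, 7 for GABA synthesis, transport and breakdown, 5 for the GABA-B receptor and 9 for chloride transport, 0 were called in any comparison. With inhibitor in KO, the median log2 fold change was −0.36 for anchoring and trafficking, −0.32 for GABA synthesis, transport and breakdown, −0.37 for the GABA-B receptor and −0.08 for chloride transport, beside −0.42 for the pan-neuronal markers. Without KO inhibitor line 3 these medians were 0.0080, 0.044 (over 8 tested genes), −0.048 and 0.049, beside −0.038.

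The chloride carriers are the other textbook sign of maturity. Slc12a5, which carries chloride out, ranged from 88.4 to 135 cRPKM in 11 libraries, and Slc12a2, which brings it in, from 5.79 to 8.61. The ratio of Slc12a5 to Slc12a2 was 10.3 to 20.4 in these libraries. In KO inhibitor line 3 Slc12a5 was at 27.6 cRPKM, Slc12a2 at 17.9 and their ratio at 1.54. All 15 pan-neuronal markers were lowest and all 9 progenitor markers highest in that library. Which cells carried either gene was not measured, so the ratio describes the whole culture and not the chloride of its neurons. KO against WT in vehicle, the log2 fold change was 0.19 ± 0.45 for Slc12a5 and −0.08 ± 0.33 for Slc12a2 (edgeR adjusted p = 0.999 for both), and with inhibitor in KO it was −0.36 ± 0.45 (adjusted p = 0.627) and 0.68 ± 0.33 (adjusted p = 0.474). Without KO inhibitor line 3 the inhibitor values in KO were 0.08 ± 0.15 for Slc12a5 and 0.10 ± 0.17 for Slc12a2. Slc12a7, another carrier, was higher with inhibitor in KO, with a log2 fold change of 2.21 ± 0.97 (edgeR unadjusted p = 0.046, adjusted p = 0.474), with 1.75, 0.71 and 11.3 cRPKM in KO inhibitor lines 1, 2 and 3. Without line 3 its log2 fold change was 0.38 ± 0.73. In 11 libraries the early alpha subunits thus stood beside a ratio of Slc12a5 to Slc12a2 of at least 10.3.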

How the data were processed

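The 12 libraries were poly(A)-selected and strand-specific, per the labels. Each deposited table gave, per Ensembl gene, a whole-number read count and a cRPKM, an RPKM corrected by the authors in a way the labels do not explain. The build was mm10, per the submitters' processing notes, while aligner, annotation and use of strand in counting are not given in the sources used here. Throughout, 3342 genes were NA, and 33371 identifiers matched a symbol.

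CPM values were counts scaled with TMM factors. Counts were fitted over all 12 libraries in edgeR 4.0.16 (R 4.3.3; filterByExpr, robust quasi-likelihood test, 1 coefficient per group), which kept 15443 genes and gave a biological coefficient of variation of 0.411. P-values were adjusted over all genes tested, and an adjusted p below 0.05 was a call. SE values were derived from the fold change and its F statistic. DESeq2 1.42.0, other scalings, no filter, blocks and leaving out each library were alternatives.

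The named genes were all 7 members, fixed partners (Gphn, Nlgn2, Slc12a2, Slc12a5), other subunits with a mean of at least 1 cRPKM, list genes called or, up to 3 a comparison, with the smallest unadjusted p if below 0.05, and the 2 genes most correlated with each member; 4 genes are not reported here. Members and lists were chosen with earlier results of these data known. The labels give each cell line 1 vehicle and 1 inhibitor library, which pairs them. Deviations from group means correlated within line at 0.41, −0.55 and −0.72 in WT lines 1 to 3 and at −0.19, 0.57 and −0.37 in KO lines. As set out above, such values cannot show whether the line labels are right.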

Additional observations from a re-analysis of the deposited data

How the results depend on the processing

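Over the 5 comparisons the 7 members gave 35 log2 fold changes and 595 values under alternatives. No member was called under any of them (smallest adjusted p 0.204), and 52 values changed sign, 31 of them on leaving out 1 library and 11 of those without KO inhibitor line 3. The number of genes called was 0 in every edgeR setting, and DESeq2 called 11 genes for KO against WT in vehicle and 18 in inhibitor. Scaling by pan-neuronal markers turned 16 signs. Many values that turned were small, but some were among the larger ones, such as Gabra2 and Gabra3 for inhibitor in KO and in the interaction. Scaled by pan-neuronal markers, KO against WT in vehicle became −0.15 for Gabra4, −0.12 for Gabra5 and −0.13 for Gabrb1, and in inhibitor 0.11 for Gabra3, 0.26 for Gabra4 and 0.21 for Gabrb1. In KO, inhibitor against vehicle became 0.23 for Gabra2, 0.053 for Gabra3, 0.40 for Gabra4, 0.40 for Gabrb1 and 0.094 for Gabrd, and the interaction 0.040, 0.089, 0.41 and 0.33 for Gabra2, Gabra3, Gabra4 and Gabrb1. In WT, inhibitor against vehicle for Gabra4 became −0.010 with library totals, −0.0076 with pan-neuronal scaling, −0.027 with no filter and −0.016 in DESeq2, and that of Gabra5 −0.0067 with no filter. With the replicate block by cell line, Gabrb2 in WT was at 0.0029, 0 genes were called, and genes at an unadjusted p below 0.05 for inhibitor in KO numbered 256 in place of 1088. The block by replicate number changed no call for the genotype comparisons.

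Leaving out 1 library at a time, the range for KO against WT in vehicle was −0.20 to 0.17 for Gabra2, −0.045 to 0.15 for Gabra4, −0.084 to 0.27 for Gabra5 and −0.016 to 0.26 for Gabrb1. In inhibitor it was −0.44 to 0.31 for Gabra3, −0.36 to 0.11 for Gabra4, −0.40 to 0.19 for Gabrb1 and −0.86 to 0.31 for Gabrb2. For inhibitor in WT it was −0.020 to 0.37 for Gabra2, −0.14 to 0.091 for Gabra3, −0.12 to 0.094 for Gabra4, −0.16 to 0.22 for Gabra5, −0.053 to 0.25 for Gabrb1 and −0.18 to 0.24 for Gabrb2, with WT vehicle lines 2 and 3 at most ends. For inhibitor in KO it was −0.69 to 0.052 for Gabra3, −0.42 to 0.052 for Gabra4, −0.41 to 0.18 for Gabrb1 and −0.59 to 0.095 for Gabrd, and for the interaction −0.67 to 0.073 for Gabra3, −0.42 to 0.047 for Gabra4 and −0.48 to 0.11 for Gabrb1, with KO inhibitor line 3 at the upper ends.

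The later minus earlier difference was −2.40, −2.36, −2.50 and −2.15 with a pseudocount of 1, and −3.61, −3.46, −3.93 and −3.39 on log2 CPM, in WT vehicle, KO vehicle, WT inhibitor and KO inhibitor, so its level depends on the scale. With 3 libraries a group, the SE of a member in vehicle ran from 0.26 (Gabra4) to 0.66 (Gabrb2), which limits what could be detected. The fit shared its estimate of the spread over all groups, KO inhibitor line 3 included, so these SE values are not the spread of the vehicle lines alone. In vehicle, 1.99% of all genes reached an unadjusted p below 0.05 by edgeR, and 8.57% without that library. Gabrd had at most 14 reads a library.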
